A study of Mus musculus with 23 samples.

Results

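Pecam1, Cldn5, Esam, Emcn, Flt1, Tie1, Icam2, Nostrin, Jam2 and Myct1 are genes of the endothelium and of its cell junctions, and their probes were read out in the cortex of 23 WT mice. These 10 genes were chosen by name from the 770 genes of the nCounter Mouse Neuroinflammation panel, which tallies color-coded probes bound to single RNA molecules without amplification, and all 10 were found. All mice were WT, 12 wk old, of the strain B6FVB, and born as siblings of transgenic mice of the line CamKIIα-TTA/tetO-APP102 x FVB, so none carried the transgene that dox controls. The 8 Untreated mice (6 males and 2 females) and the 4 Dox mice (1 male and 3 females) were injected with saline according to the methods. The 5 LPS mice (3 males and 2 females) and the 6 Dox+LPS mice (3 males and 3 females) received 2 mg/kg LPS i.p. and were harvested 18 h later. Dox and Dox+LPS mice had eaten medicated chow (100 mg/kg dox), which began on postnatal day 3, ended at 6 wk of age and was followed by 6 wk without the drug. All animals were perfused with PBS before the cortex was taken. The comparisons asked how these genes differed after LPS in dox-untreated and dox-treated mice, and whether prior dox treatment moved them.

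Endothelial cells line the vessels of the brain and seal them with tight junctions, whose claudins and junctional adhesion molecules close the gap between neighboring cells and form the blood-brain barrier. Growth of these cells and their quiescence are set by receptor tyrosine kinases for VEGF and for the angiopoietins. Bacterial LPS acts on the endothelium directly and through cytokines, after which the cells present adhesion molecules to circulating leukocytes. The cortex was taken as bulk tissue, so fewer endothelial cells and less RNA per cell cannot be told apart for any gene below.

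Counts were scaled by the upper quartile of the panel genes, and a normalized count is a count scaled to the mean library. Panel totals ran from 645971 to 804471 per mouse. The 8 negative control probes of a mouse gave its background (their mean and 2 SD above it, 15.4 to 29.8 counts). Of the 10 genes, 9 exceeded background in all mice, and Myct1 did not exceed it in 4 mice. The 11 LPS-injected mice shared 1 cartridge and the 12 saline-injected mice another, and an effect of LPS cannot be told apart from one of the cartridge. Replicates are numbered in the order of the records, and a number pairs no mice. The p-values measure the spread between mice.

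Dox+LPS replicate 1 stood apart in these genes. It had the lowest normalized count of its group for 6 of the 10 genes, against 26.6% of all panel genes. It lay 1.16 below the mean of the other 5 Dox+LPS mice for Tie1 on the log2 scale, 0.86 below for Icam2, 0.69 below for Cldn5 and 0.60 below for Pecam1, but 0.19 above them for Emcn. Its panel total of 686031 counts was within the range of the other mice. Its summed normalized count of 9 homeostatic microglia genes was 1746, the lowest of all mice, and that of 13 genes of endothelial activation was 21720, the highest. Of the latter sum, 17611 was Lcn2 alone, so it mostly gives the level of that gene. Untreated replicate 3 was the highest of its group for 5 of the 10 genes, against 18.1% of all panel genes. It had a normalized Lcn2 count of 733, against 13.6 to 128 in the other 7 Untreated mice. Both mice were kept, and values without them are given where a result rests on them.

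**Figure D1:**
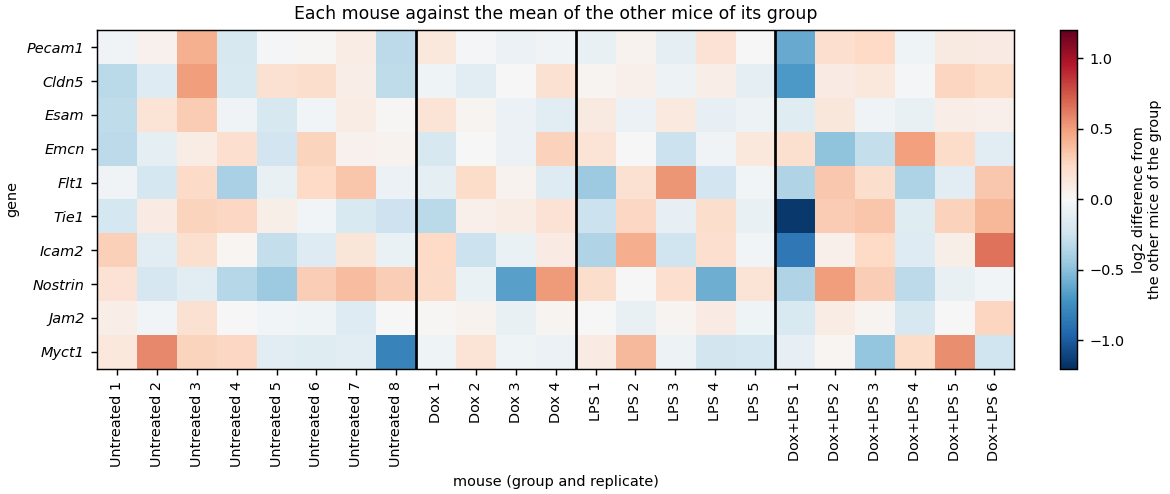
Log2 difference of each of 23 mice (columns) from the mean of the other mice of its group, for the 10 genes (rows), with red above and blue below. Dox+LPS replicate 1 holds the deepest blue cells, at -1.16 for Tie1 and -0.86 for Icam2, and is above its group for Emcn.

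The genes that differed after LPS did so in both directions. Pecam1, Cldn5, Esam, Icam2 and Emcn were higher in LPS-injected mice, Jam2, Flt1 and Tie1 were lower, and Nostrin and Myct1 did not pass the test in the effect averaged over dox. After LPS alone 4 genes rose and 3 fell at an adjusted p under 0.05 (edgeR's quasi-likelihood test, Benjamini-Hochberg adjustment over 770 genes), where 22.9% of all panel genes rose and 29.1% fell (51.9% together). In dox-treated mice 5 rose and 1 fell, against 24.7% and 31.3% of the panel (56% together). In the LPS effect averaged over both dox conditions 5 rose and 3 fell, against 28.2% and 37.1%. The share of members past the threshold in either direction, 8 of 10 averaged over dox, is read against 65.3% of the panel. The methods count as DEGs the genes that also exceed 0.5 in absolute log2 fold change. Among the members Pecam1 and Icam2 were upregulated DEGs without dox, as were 16.8% of the panel, and Pecam1, Cldn5 and Icam2 with dox, as were 19.5%. With 1 RUVg factor from the control probes as a covariate, both kept an adjusted p under 0.05 without dox, but neither exceeded 0.5 (Pecam1 0.498 and Icam2 0.442 on the log2 scale). Averaged over dox the 2 upregulated DEGs were Pecam1 and Icam2, against 18.4% of the panel. No member was a downregulated DEG in any of these comparisons, where 5.97%, 7.01% and 6.23% of the panel were (22.7%, 26.5% and 24.7% of the panel were DEGs in either direction). LPS and Untreated mice did not overlap in 3 members, Pecam1, Icam2 and Jam2, and in 26.8% of the panel. Dox+LPS and Dox mice did not overlap in 2 members, Esam and Jam2, and in 40.1% of the panel, or in 5 members, with Pecam1, Cldn5 and Icam2 added, and 46.8% of the panel without Dox+LPS replicate 1. The median log2 fold change of the 10 genes averaged over dox was 0.20, against -0.06 for the panel.

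**Figure D2:**
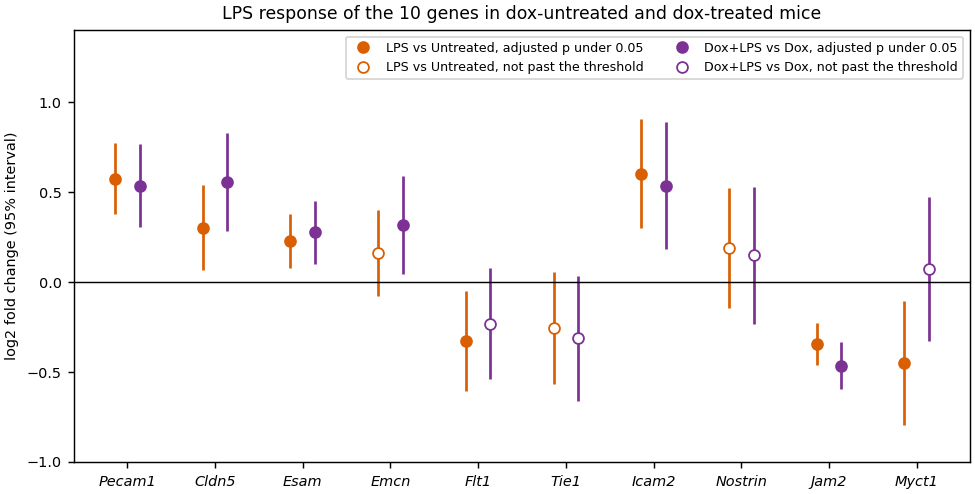
Log2 fold change after LPS (vertical axis, with 95% interval) for the 10 genes in dox-untreated mice (LPS vs Untreated, orange) and dox-treated mice (Dox+LPS vs Dox, purple), filled where the adjusted p was under 0.05. Pecam1 and Icam2 lie above 0.5 in both, and Jam2 below 0 in both, at -0.34 and -0.46.

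Pecam1 encodes CD31, an adhesion molecule of the contacts between endothelial cells that leukocytes and platelets also carry. Its normalized count ran from 264 to 414 in Untreated mice (median 320) and was 331, 307, 297 and 303 in the 4 Dox mice. In LPS mice it was 456, 492, 449, 529 and 478. In Dox+LPS mice it ran from 313 to 509 (median 471). All LPS mice lay above all Untreated mice, and in the Dox+LPS group only replicate 1, at 313, fell among the saline-injected mice. The log2 fold change was 0.57 ± 0.096 (SE) in dox-untreated mice (edgeR adjusted p = 2.2e-05) and 0.54 ± 0.11 in dox-treated mice (adjusted p = 0.000273). Averaged over dox it was 0.56, a 1.47-fold rise (adjusted p = 5.28e-07), and 0.60 without Dox+LPS replicate 1.

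Icam2, a ligand of the leukocyte integrin LFA-1 that resting endothelium carries constitutively and leukocytes also express, showed a rise of like size. Untreated mice had normalized counts of 93.0 to 133 (median 109), and the Dox mice had 123, 94.9, 104 and 114. The LPS mice had 137, 214, 146, 187 and 164, and the Dox+LPS mice ran from 92.5 to 223 (median 158). The lowest LPS mouse lay just above the highest Untreated mouse. Dox+LPS replicate 1, at 92.5, lay below all saline-injected mice, and the other 5 mice of its group, from 139, lay above them. LPS changed Icam2 by a log2 fold change of 0.60 ± 0.15 in dox-untreated mice (edgeR adjusted p = 0.00129) and 0.54 ± 0.17 in dox-treated mice (adjusted p = 0.01), and the latter was 0.65 without Dox+LPS replicate 1 (adjusted p = 0.000483).

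Cldn5 encodes claudin-5, the main claudin of the tight junctions of the blood-brain barrier. Normalized counts were 889 to 1466 in Untreated mice (median 1057), 798, 762, 818 and 902 in Dox mice, 1375, 1399, 1306, 1410 and 1271 in LPS mice and 796 to 1380 in Dox+LPS mice (median 1266). The Dox mice were low and close together, and the Untreated mice spread widely, with replicate 3 above all other mice of the series. LPS changed Cldn5 on the log2 scale by 0.30 ± 0.11 in dox-untreated mice (edgeR adjusted p = 0.0279) and 0.56 ± 0.13 in dox-treated mice (adjusted p = 0.000968). In dox-untreated mice the call was lost when any of Untreated replicates 1, 4 or 8 or LPS replicates 1, 2 or 4 was left out (adjusted p = 0.0513 to 0.0613, log2 fold change 0.26 to 0.30), and with 1 RUVg factor from the control probes as a covariate (0.23, adjusted p = 0.163). It was 0.37 (adjusted p = 0.00375) without Untreated replicate 3. In dox-treated mice it was 0.65 (adjusted p = 2.47e-05) without Dox+LPS replicate 1.

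Of the 10 genes, 6 had a promoter in the RefSeq table used here (GRCm38.p6), and the other 4 are Pecam1, Esam, Icam2 and Jam2. Printed here and below are the 250 bases before the start of Cldn5, Emcn, Flt1 and Tie1, the 4 of these 6 that passed the test averaged over dox and that include both directions. Capitals mark GGAA, the core motif of ETS factors, on either strand (GGAA or TTCC). It occurs in 93.4% of the 32851 promoter windows of this length, with a median of 3 matches. The Cldn5 window (chr16:18776597-18776846, plus strand) holds no match, so it has no capitals:
Cldn5: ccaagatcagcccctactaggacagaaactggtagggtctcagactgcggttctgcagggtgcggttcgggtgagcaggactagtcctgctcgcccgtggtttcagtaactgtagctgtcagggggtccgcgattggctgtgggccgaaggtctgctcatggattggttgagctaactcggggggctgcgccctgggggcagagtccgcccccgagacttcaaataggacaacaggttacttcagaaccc

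Esam encodes an adhesion molecule of endothelial tight junctions. Its normalized counts were 194 to 282 in Untreated mice (median 233), 252, 236, 223 and 215 in Dox mice, 294, 266, 294, 262 and 267 in LPS mice and 258 to 303 in Dox+LPS mice (median 282). All 6 Dox+LPS mice lay above all 4 Dox mice, replicate 1 by the smallest margin. LPS and Untreated mice overlapped through Untreated replicate 3, at 282. Esam differed by a log2 fold change of 0.23 ± 0.073 in dox-untreated mice (edgeR adjusted p = 0.0114) and 0.28 ± 0.084 in dox-treated mice (adjusted p = 0.00736). Averaged over dox it was 0.25 (adjusted p = 0.000351) and ran from 0.22 to 0.37 over all alternative settings.

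Emcn encodes endomucin, a sialomucin of the endothelial surface. Untreated mice had normalized counts of 120 to 170 (median 149), Dox mice 136, 149, 144 and 173, LPS mice 178, 163, 141, 159 and 175, and Dox+LPS mice 139 to 245 (median 188). The groups overlapped in both comparisons. Emcn differed by a log2 fold change of 0.16 ± 0.12 in dox-untreated mice (edgeR adjusted p = 0.257) and 0.32 ± 0.13 in dox-treated mice (adjusted p = 0.0457). The latter call was lost in 22 of 42 alternative settings, among them each omission of Dox replicates 1, 2 and 3 (adjusted p = 0.128, 0.0864 and 0.101), of Dox+LPS replicates 1, 4 and 5 (adjusted p = 0.078, 0.134 and 0.0887), of Untreated replicates 7 and 8 and of LPS replicates 2 and 4 (adjusted p = 0.0504 to 0.0513). Averaged over dox it was 0.24 ± 0.088 (adjusted p = 0.0203), and this call was lost with 1 or 2 RUVg factors (adjusted p = 0.0659 and 0.0731), with 1 factor and the likelihood ratio test (adjusted p = 0.0797), in males only (adjusted p = 0.101) and in females only (0.11, adjusted p = 0.299). Its promoter window (chr3:137340828-137341077, plus strand) holds 4 matches of the ETS core:
Emcn: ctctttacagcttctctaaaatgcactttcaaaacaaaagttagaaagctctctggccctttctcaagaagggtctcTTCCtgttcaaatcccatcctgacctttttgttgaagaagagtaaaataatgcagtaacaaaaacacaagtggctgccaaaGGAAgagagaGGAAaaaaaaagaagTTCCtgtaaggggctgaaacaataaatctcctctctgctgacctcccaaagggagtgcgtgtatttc

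**Figure D3:**
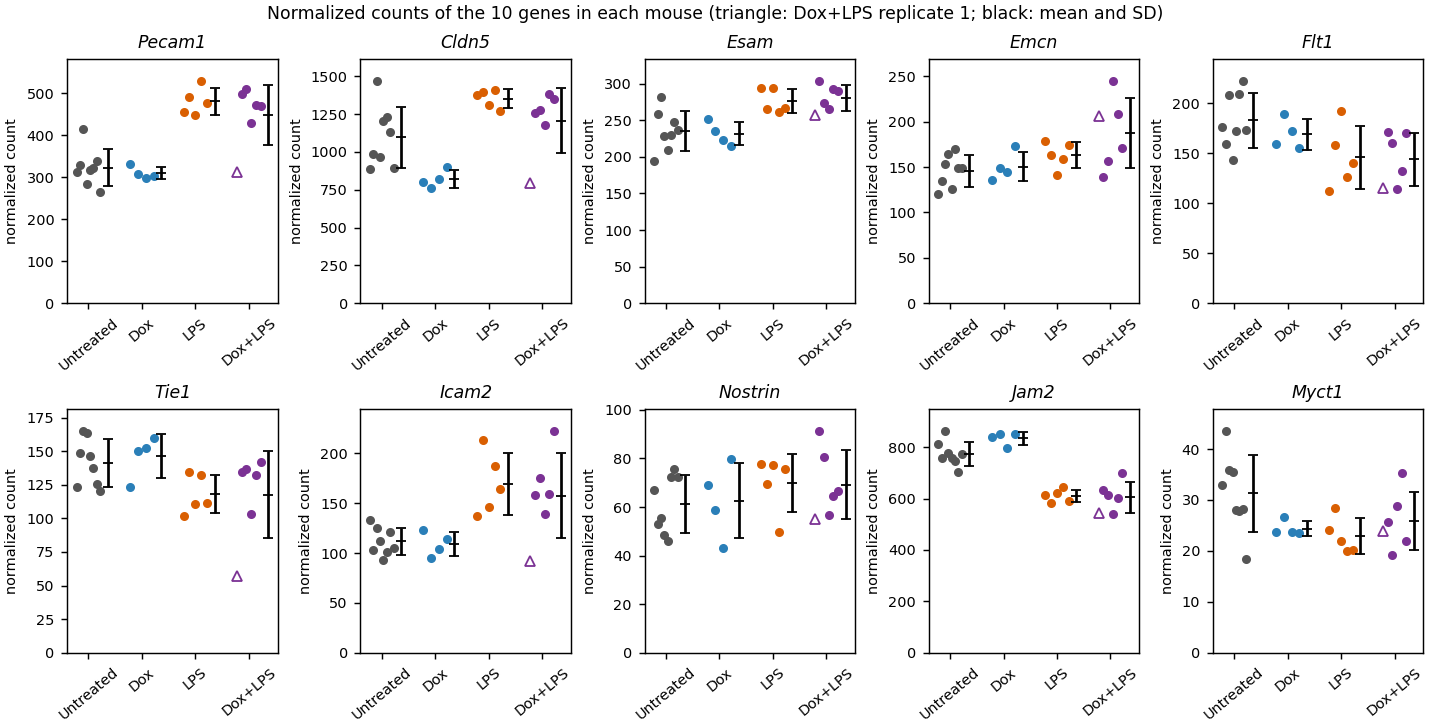
Normalized counts (vertical axes, from 0) of the 10 genes in each of 23 mice by group, with mean and SD in black and Dox+LPS replicate 1 as an open triangle. Pecam1 and Icam2 of the 5 LPS mice lie above all 8 Untreated mice, and Jam2 of all 11 LPS-injected mice lies below all 12 saline-injected mice.

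Jam2, which encodes the junctional adhesion molecule JAM-B of endothelial junctions and is also found on neurons, was lower in all LPS-injected mice than in any saline-injected mouse. The 8 Untreated mice had normalized counts of 703 to 863 (median 765), and the Dox mice had 841, 853, 798 and 850. The LPS mice had 612, 581, 620, 643 and 591, and the Dox+LPS mice ran from 540 to 700 (median 608). The 11 LPS-injected mice, at 540 to 700, did not overlap the 12 saline-injected mice, at 703 to 863, as was the case for 19.5% of the panel genes and for no other member. Its highest LPS-injected mouse, Dox+LPS replicate 6, and its lowest saline-injected mouse, Untreated replicate 7, were close. On the log2 scale Jam2 changed by -0.34 ± 0.056 in dox-untreated mice (edgeR adjusted p = 1.63e-05) and -0.46 ± 0.062 in dox-treated mice (adjusted p = 1.08e-06), the latter in 42 of 42 alternative settings on the same side of the threshold. Neuronal markers moved the same way in part. Of 9 neuronal genes 7 fell averaged over dox, where 37.1% of the panel fell. The median log2 fold change of the 9 genes was -0.16, against -0.06 for the panel. The lowest values among them were those of Tubb3 (-0.53) and Nefl (-0.32). The summed normalized count of the 9 genes was 40835 to 47831 in saline-injected and 34812 to 41334 in LPS-injected mice. Their part in the Jam2 value was not tested.

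Both receptor tyrosine kinases had lower values after LPS, with weaker support. Flt1 encodes VEGF receptor 1, which binds VEGF-A and in its soluble form acts as a decoy. Its normalized counts were 143 to 222 in Untreated mice (median 175), 159, 190, 173 and 156 in Dox mice, 112, 159, 192, 126 and 141 in LPS mice and 114 to 171 in Dox+LPS mice (median 146). LPS replicate 3 was high in its group, and the groups overlapped. That mouse also had the lowest Lcn2 of the LPS mice (5449, against 10667 to 11938 in the others). Its P2ry12, a homeostatic microglia gene, was their highest (164, against 85.2 to 123). The fitted log2 fold change of Flt1 was -0.33 ± 0.13 in dox-untreated mice (edgeR adjusted p = 0.0425) and -0.23 ± 0.15 in dox-treated mice (adjusted p = 0.197). In dox-untreated mice the call was lost when any of Untreated replicates 3, 6 and 7 or LPS replicates 1, 4 and 5 was left out (adjusted p = 0.0725 to 0.145), and with TMM, RLE, housekeeping and positive control scaling (adjusted p = 0.0702, 0.0588, 0.13 and 0.255) and 1 or 2 RUVg factors (adjusted p = 0.0984 and 0.109), and held without LPS replicate 3 (-0.45, adjusted p = 0.00703).

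Tie1 encodes an orphan receptor that acts with the angiopoietin receptor Tie2. Untreated mice had normalized counts of 120 to 165 (median 142), Dox mice 123, 150, 152 and 160, LPS mice 102, 135, 111, 132 and 112, and Dox+LPS mice 57.1 to 142 (median 133). The value of 57.1 was that of replicate 1, and the other 5 mice of its group, from 103 to 142, overlapped the Dox mice. For Tie1 the log2 fold change was -0.26 ± 0.15 in dox-untreated mice (edgeR adjusted p = 0.163) and -0.31 ± 0.17 in dox-treated mice (adjusted p = 0.121), and without Dox+LPS replicate 1 the latter was -0.17 (adjusted p = 0.22). In dox-untreated mice the value was unmoved by that omission while its adjusted p became 0.0373, since all groups share an estimate of the spread. Averaged over dox Tie1 was -0.28 ± 0.11 (adjusted p = 0.0312), a call lost without any of Dox replicates 2, 3 and 4, LPS replicate 1 and Dox+LPS replicate 4 (adjusted p = 0.0502 to 0.0634). It was also lost with TMM and RLE scaling (adjusted p = 0.0867 and 0.0736), DESeq2 (adjusted p = 0.0558), 1 or 2 RUVg factors (adjusted p = 0.0798 and 0.0809), in males only (-0.49, adjusted p = 0.0508) and in females only (-0.15, adjusted p = 0.236).

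The promoter windows of both receptors lie on the minus strand. That of Flt1 (chr5:147726012-147726261) holds 4 matches of the ETS core, and on either strand it also holds TGACGTCA, the cAMP response element, which 1.55% of all windows hold, TATAAA, which 12.4% hold, a match of the NF-kB motif, which 7.25% hold, and 3 matches of GGGCGG, the GC box, which 32.7% hold. That of Tie1 (chr4:118489850-118490099) holds 7 matches of the ETS core and none of those motifs. These are matches of letters only:
Flt1: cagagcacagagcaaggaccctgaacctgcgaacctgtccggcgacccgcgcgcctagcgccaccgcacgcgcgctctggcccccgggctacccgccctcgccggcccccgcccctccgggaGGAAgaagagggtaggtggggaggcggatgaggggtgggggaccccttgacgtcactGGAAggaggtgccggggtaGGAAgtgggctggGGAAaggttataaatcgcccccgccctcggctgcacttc
Tie1: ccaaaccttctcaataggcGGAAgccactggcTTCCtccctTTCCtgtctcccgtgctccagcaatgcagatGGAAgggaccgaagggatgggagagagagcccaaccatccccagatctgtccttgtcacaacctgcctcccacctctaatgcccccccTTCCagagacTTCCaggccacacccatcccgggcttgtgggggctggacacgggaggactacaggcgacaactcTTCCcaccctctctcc

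Nostrin, whose protein binds endothelial nitric oxide synthase and directs its traffic, had normalized counts of 46.0 to 75.7 in Untreated mice, 43.2 to 79.9 in Dox mice, 49.7 to 77.6 in LPS mice and 55.1 to 91.4 in Dox+LPS mice. All groups overlapped. Its log2 fold change after LPS averaged over dox was 0.17 ± 0.12 (edgeR adjusted p = 0.231, 95% interval -0.08 to 0.42). Myct1, which encodes a membrane protein of endothelial cells, was the dimmest in relation to background. Its normalized counts were 18.4 to 43.6 in Untreated mice, 23.7, 26.7, 23.7 and 23.5 in Dox mice, 24.1, 28.5, 21.97, 20.1 and 20.2 in LPS mice and 19.1 to 35.3 in Dox+LPS mice. Its log2 fold change was -0.45 ± 0.17 in dox-untreated mice (adjusted p = 0.0272) and 0.07 ± 0.19 in dox-treated mice (adjusted p = 0.771). The former call was lost without Untreated replicate 2, LPS replicate 4 or LPS replicate 5 (adjusted p = 0.06, 0.072 and 0.0722) and was lost under DESeq2 (adjusted p = 0.0837), housekeeping and positive control scaling (adjusted p = 0.0581 and 0.154) and 1 or 2 RUVg factors (adjusted p = 0.0504 and 0.058). The difference between both LPS responses of Myct1 was 0.52 ± 0.25 (unadjusted p = 0.052, adjusted p = 0.539).

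The scaling of the libraries shifted all genes by a common amount and with it the values of all members. The median log2 fold change of the panel averaged over dox was -0.06 with the upper quartile and 0.06 with the geometric mean of the 13 housekeeping genes. Under the latter scaling Pecam1 was 0.68 (edgeR adjusted p = 2.38e-07), Icam2 0.69 (adjusted p = 3.05e-05) and Jam2 -0.28 (adjusted p = 8.82e-05), so their directions held. Flt1, at -0.16 (adjusted p = 0.221), and Tie1, at -0.16 (adjusted p = 0.281), no longer passed. With positive control probes they were -0.17 (adjusted p = 0.216) and -0.17 (adjusted p = 0.296). No member changed sign in this comparison under any of the 5 scalings.

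**Figure D4:**
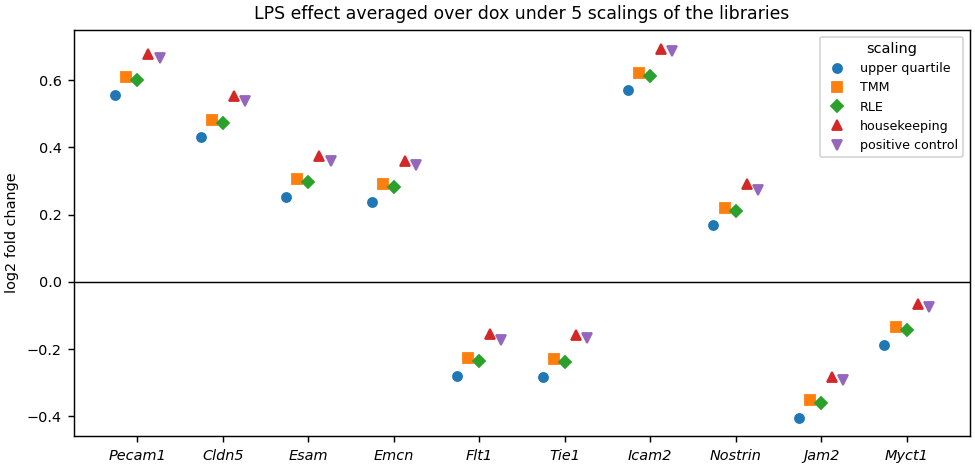
Log2 fold change of the 10 genes after LPS, averaged over dox (vertical axis), under 5 scalings of the libraries (symbols). Housekeeping and positive control scaling place each gene above its upper quartile value, with Flt1 moving from -0.28 to -0.16, and no gene crosses 0.

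Ratios of counts of 2 genes within a mouse do not depend on the scaling. Their size reflects probe efficiency as well as RNA, so only their change between mice can be read, and ratios of a gene that rose to a gene that fell had to rise, which makes them a description. The ratio of Pecam1 to Jam2 was 0.342 to 0.481 in saline-injected mice and 0.577 to 0.846 in LPS-injected mice, with Dox+LPS replicate 1 lowest among the latter. Esam to Jam2 was 0.239 to 0.352 against 0.407 to 0.492, and here Dox+LPS replicate 1, at 0.475, sat inside its group. Cldn5 to Tie1 was 5.07 to 9.04 against 9.32 to 13.9, with Dox+LPS replicate 1 highest. For Pecam1 to Flt1 the ranges were 1.52 to 2.08 and 2.33 to 4.19. Each of these 4 ratios separated all 11 LPS-injected from all 12 saline-injected mice, also after subtraction of the mean negative control count. Pecam1 to Tie1 did so as well (1.74 to 2.70 against 3.31 to 5.47). Cldn5 to Jam2 separated 10 of the 11, all but Dox+LPS replicate 1, and so did Icam2 to Jam2. Emcn to Jam2 lay above all saline-injected mice in 9 of the 11. Pecam1 to Cldn5, both of which rose, overlapped (0.263 to 0.415 against 0.332 to 0.399). The share of other gene pairs of the panel that separate was not computed. Flt1 to Tie1, the ratio of both receptors, had ranges of 0.876 to 1.77 and 0.957 to 2.02, which overlapped. The ratios show unequal change of 2 genes and not which of them moved.

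**Figure D5:**
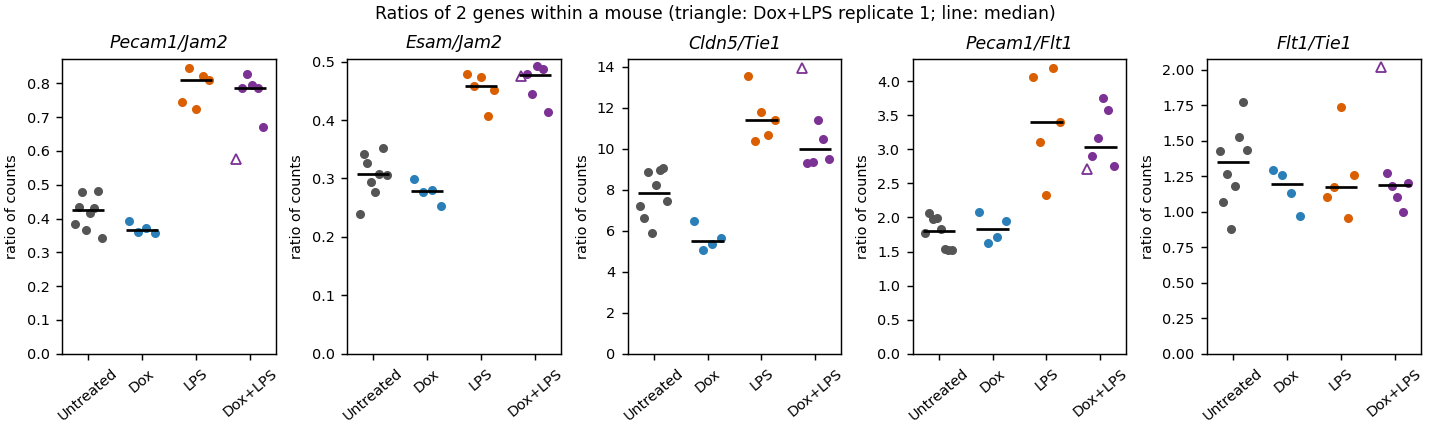
Ratio of counts of 2 genes within each of 23 mice (vertical axes, from 0) by group, with the median as a line and Dox+LPS replicate 1 as an open triangle. Pecam1/Jam2, Esam/Jam2, Cldn5/Tie1 and Pecam1/Flt1 do not overlap between saline-injected and LPS-injected mice, while Flt1/Tie1 does.

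Prior dox treatment gave no call among the 10 genes. Untreated mice were in lanes 1 to 8 of their cartridge and Dox mice in lanes 9 to 12. LPS mice were in lanes 1, 2, 3, 4 and 6 of theirs and Dox+LPS mice in lanes 7 to 12. Dox and lane can therefore not be told apart in either comparison. In Dox against Untreated mice 0 of the 10 and 0% of the panel passed (edgeR adjusted p), while 41 panel genes and 1 member, Cldn5, had an unadjusted p under 0.05. Cldn5 was lower in Dox mice by a log2 fold change of -0.42 ± 0.13 (unadjusted p = 0.0029, adjusted p = 0.811), and its value over all alternative settings ran from -0.49 to -0.30. Of the 4 Dox mice, 3 lay below all Untreated mice, and the fourth, at 902, lay above the Untreated mice at 889 and 896. In Dox+LPS against LPS mice 0 of the 10 and 0% of the panel passed, with 102 panel genes and 0 members at an unadjusted p under 0.05. The log2 fold changes of the members ran from -0.16 for Cldn5 (95% interval -0.41 to 0.08) to 0.20 for Emcn (95% interval -0.05 to 0.45). The interaction of LPS and dox likewise passed for 0 of the 10 and 0% of the panel, with 69 panel genes and 0 members at an unadjusted p under 0.05. For Pecam1 the interaction was -0.04 (95% interval -0.34 to 0.27), for Jam2 -0.12 (95% interval -0.29 to 0.05) and for Cldn5 0.25 (95% interval -0.11 to 0.61). The ranges of Dox and Untreated mice overlapped in all 10 genes (0 of 10 without overlap, against 0.39% of the panel), as did those of Dox+LPS and LPS mice (0 of 10, against 1.82%).

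Within groups, a subset of the 10 genes varied together from mouse to mouse. Correlations were taken over 23 mice on log2 normalized counts after subtraction of the group mean, as a description, and the points share their scaling and 2 cartridges. Pecam1 and Cldn5 had the highest of the 45 coefficients (r = 0.83, Spearman's rho = 0.64), and r was 0.69 without Dox+LPS replicate 1. Pecam1 with Tie1 (r = 0.74), Cldn5 with Tie1 (0.74), Tie1 with Icam2 (0.69) and Pecam1 with Icam2 (0.67) followed. Without Dox+LPS replicate 1 these 4 were 0.42, 0.47, 0.35 and 0.40. Emcn went the other way, with r = -0.48 to Flt1 and -0.45 to Jam2. The median over the 45 pairs was 0.22, against 0.03 over all pairs of the 666 panel genes above background. Without Dox+LPS replicate 1 these medians were 0.18 and 0.03. With positive control scaling the median over the 45 pairs was 0.50, and the coefficient of Emcn and Flt1 was -0.10. The median over all panel pairs was not computed under that scaling, so the 0.50 has no value to be read against.

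The panel gene most like Pecam1 in this sense was C4a, a complement gene (r = 0.85), and the most like Tie1 was Cx3cr1, the fractalkine receptor of microglia (r = 0.89). Both likenesses fell without Dox+LPS replicate 1, to 0.69 and 0.64, and the most alike genes became Tgfb1 for Pecam1 (r = 0.83) and Hpgds for Tie1 (r = 0.68). Flt1 was most like Bcl2, the anti-apoptotic gene, with r = 0.84 with and without that mouse. For Cldn5 the first 2 were Pecam1 and C4a (r = 0.83 and 0.79), for Esam Slc2a1, the glucose transporter of the barrier, and Tmcc3 (0.59 and 0.50), and for Emcn Slfn8 and Ccl3 (0.64 and 0.62). Icam2 was most like Dock2 and Crip1 (0.81 and 0.81), Nostrin like Tbc1d4 and Atp6v0e (0.66 and 0.63), Jam2 like Ctss and Erbb3 (0.70 and 0.66), and Myct1 like Hdac2 and Mre11a (0.65 and 0.62). The second gene was Cldn5 for Pecam1 (0.83), Itgb5 for Tie1 (0.82) and Nwd1 for Flt1 (0.67). Without Dox+LPS replicate 1, Itgb5 with Tie1 fell to 0.41, and Dock2 and Crip1 with Icam2 to 0.64 and 0.68. C4a with Cldn5 fell to 0.59, and Tgfb1 became the gene most like Cldn5 (r = 0.79). Hdac2 with Myct1 rose most, to 0.74. The first gene also changed for Esam, Emcn, Icam2, Nostrin and Jam2.

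Sex gave no call among the 10 genes in the fit with group as a covariate (0 of 10, against 0.519% of the panel), and the interaction of sex and LPS gave 0 of 10 and 0% of the panel (84 panel genes and 0 members at an unadjusted p under 0.05, edgeR). In the Dox+LPS group alone, females and males did not overlap in 5 of the 10 genes, against 20.4% of the panel. Emcn was 139 to 171 in the 3 females and 206 to 245 in the 3 males. Flt1 was 161 to 171 in females and 114 to 132 in males, and Jam2 was 615 to 700 against 540 to 601. Tie1 and Nostrin were also higher in the females. Females were in lanes 10, 11 and 12 and males in lanes 7, 8 and 9 of the cartridge, so that sex and lane cannot be told apart in this group. In LPS mice 1 of the 10 genes did not overlap between the sexes (17% of the panel) and in Untreated mice 0 (8.57%). The difference between these groups was not tested.

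Of 39 listed genes of endothelium and barrier 6 were measured. Averaged over dox 5 of them rose and 1 fell (edgeR adjusted p), where 28.2% of the panel rose and 37.1% fell. Ly6a, the antigen Sca-1 of mouse endothelium, rose by 1.95 on the log2 scale (adjusted p = 1.52e-12), Lsr, a protein of tricellular junctions, by 0.68 (adjusted p = 1.58e-06) and Itga6, a laminin-binding integrin, by 0.37 (adjusted p = 0.000147). Tmem100, a membrane protein of the endothelium, was at -0.23 (adjusted p = 0.000594), but did not pass with housekeeping scaling (-0.11, adjusted p = 0.168) or positive control scaling (-0.12, adjusted p = 0.146). Of 13 listed genes of VEGF, neuropilin and angiopoietin signalling 3 were measured and all 3 fell, where 37.1% of the panel fell. They were Nrp2, a neuropilin, at -0.25 (adjusted p = 0.00163), Vegfa, the ligand of Flt1, at -0.18 (adjusted p = 0.034) and Hif1a, the hypoxia-inducible factor, at -0.10 (adjusted p = 0.0113). None of the 3 passed with housekeeping scaling, where Nrp2 was -0.13 (adjusted p = 0.117), Vegfa -0.05 (adjusted p = 0.572) and Hif1a 0.02 (adjusted p = 0.553), or with positive control scaling, where they were -0.14, -0.07 and 0.01 (adjusted p = 0.154, 0.527 and 0.861). Vegfa and Hif1a also did not pass with TMM scaling (adjusted p = 0.122 and 0.195) or RLE scaling (adjusted p = 0.0924 and 0.14). Of 20 listed genes of endothelial activation by cytokines or LPS 13 were measured and all 13 rose, where 28.2% of the panel rose. The list was drawn up from genes that such stimuli induce, so a rise was to be awaited. Its adhesion molecules Icam1, Vcam1, Sele and Selp were not among the measured genes. Tgm2, a transglutaminase, was at 1.71 (adjusted p = 6.76e-14), Ch25h, which makes an oxysterol, at 2.93 (adjusted p = 1.28e-13) and Osmr, the oncostatin M receptor, at 2.08 (adjusted p = 5.03e-12). Many of these genes are also made by other cells.

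Markers of leukocytes, in which Pecam1 and Icam2 can also be expressed, and of other cells were checked beside these values. Averaged over dox 28.2% of the panel rose and 37.1% fell, and the counts below are read against these shares. Of 3 neutrophil genes 1 rose averaged over dox (Fpr1, 1.26, edgeR adjusted p = 0.000111), and it exceeded background in 10 of the 23 mice. Ly6g, a defining marker, was under background in all mice. The summed normalized count of the 3 genes was 42.0 to 76.4 in saline-injected and 62.9 to 104 in LPS-injected mice. Ccr2, the chemokine receptor of monocytes, did not pass the test (0.03, adjusted p = 0.918). Of 6 T cell genes 5 were under background in all mice, with sums of 67.0 to 125 and 62.6 to 87.0, and Cd6 fell (-0.50, adjusted p = 0.000625). Of 4 B cell genes 3 and of 7 NK and cytotoxic genes 4 were under background in all mice, with sums of 25.6 to 53.1 and 17.5 to 40.8 for the former and 53.7 to 96.0 and 71.0 to 104 for the latter. Of these 11 genes only Tnfrsf17 passed (-0.76, adjusted p = 0.00601), a B cell gene that exceeded background in only 3 of the 23 mice. Of 4 perivascular macrophage genes all 4 rose, and their sum went from 48.5 to 77.5 in saline-injected to 141 to 437 in LPS-injected mice. Of the lists for mural cells, for fibroblasts and for platelets and erythrocytes 0 genes were measured. Of the glial lists, 7 of 9 homeostatic microglia genes fell, 2 of 6 astrocyte genes rose and 3 fell, and 1 of 11 oligodendrocyte genes rose and 10 fell. The median log2 fold change averaged over dox was -0.98 for the microglia list, -0.12 for the astrocyte list and -0.53 for the oligodendrocyte list. The part of all these cells in the values of Pecam1 and Icam2 was not tested.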

How the data were processed

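The data are probe counts from 23 cortices. The authors deposited the instrument's count table, in which all probe values are whole (recorded as estimated counts, since header rows contain decimals). A column that matches no labelled mouse (1 in all) was omitted, as were the normalized values that the authors also deposited. Per the labels and methods, the study used edgeR 3.38.4 with upper quartile scaling, RUVg, likelihood ratio tests and Benjamini-Hochberg adjustment.

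Groups follow the labels. Here the 770 panel genes (757 endogenous, 13 housekeeping) were scaled by the upper quartile, and 1 model with a coefficient per group was fitted to all mice (edgeR 4.0.16, R 4.3.3, two-sided quasi-likelihood test, no filter on low counts). Adjusted p covers 770 genes. The SE is the absolute log2 fold change over the root of F. Scripts were tested on simulated data. Named genes were the 10 members, up to 4 genes per list by smallest p averaged over dox, and the 2 genes most correlated with each member, beside Lcn2, Tgfb1 and Hpgds, named after their values were seen. The result of 1 listed gene is not reported here. The members and lists were chosen with earlier results of these data known.

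Alternatives tried were other scalings (TMM, RLE, housekeeping genes, positive controls), other tests (likelihood ratio, DESeq2 1.42.0, limma-voom with limma 3.58.1), 1 or 2 RUVg factors computed from the published description, a low-count filter, background subtraction, a sex covariate, either sex alone, fits restricted to the groups compared, and omitted mice. RUVg combined with the likelihood ratio test, and joint or separate omission of Dox+LPS replicate 1 for overlaps and correlations, were added after the data had been seen. Panel totals were 645971 to 804471 counts per mouse, and counting error is largest for dim genes such as Myct1. Promoters are RefSeq's (GRCm38.p6). The count files name no genome build, so positions are given only for those promoter windows.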

Additional observations from a re-analysis of the deposited data

Results flagged for a closer look

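Of 40 sets of values, 1 per gene and group, 2 held a mouse that stood far from the others by a gap test against the range of its group, and chance alone marks about 1 in 20 groups. The normalized Cldn5 count of Dox+LPS replicate 1 was 796, against 1177 to 1380 in the other 5 mice, and the gap below it was 0.653 of the range of the group. The normalized Myct1 count of Dox replicate 2 was 26.7, against 23.5 to 23.7 in the other 3 Dox mice, and the gap was 0.914 of a narrow range, at counts close to background.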

How the results depend on the processing

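The direction of Pecam1, Icam2 and Jam2 and their side of the threshold held in dox-untreated mice in all 42 alternative settings. In dox-treated mice Jam2 held in 42 of 42, and Pecam1, Cldn5, Esam and Icam2 in 41 of 42, the exception being males only, where the Dox group had 1 mouse. No paired analysis was possible because the labels give no numbers that pair mice. Scaling moved the median log2 fold change of the panel in dox-untreated mice from -0.04 to 0.08 (positive controls) and in dox-treated mice from -0.07 to 0.10 (housekeeping).

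In dox-untreated mice, where 3 members fell, 1 fell under housekeeping scaling, positive control scaling, 1 RUVg factor, 2 RUVg factors, males only, and 1 RUVg factor with the likelihood ratio test, and 1 to 4 with single mice left out. The count that rose was 2 in males only in place of 4, and 3 in each other setting where Cldn5 or Esam lost its call. Cldn5 lost it in 11 of 42 settings and Esam in 2. Upregulated DEGs numbered 0 with 1 RUVg factor, with either test, and 1 with 2 factors in place of 2. Downregulated DEGs numbered 1 (Myct1) in place of 0 after background subtraction and without the 3 Untreated mice of another number series, and 0 to 1 with single mice left out (Myct1, without Untreated replicate 8 or LPS replicate 2). In dox-treated mice upregulated DEGs numbered 1 with 2 RUVg factors and 0 in males only in place of 3, genes that rose 0 in males only and 4 in each other setting where Emcn lost its call in place of 5, and downregulated DEGs 1 in males only and 0 to 1 with single mice left out in place of 0 (Jam2, -0.60 in males only and -0.51 without Dox+LPS replicate 6). Averaged over dox, 1 gene fell in place of 3 under housekeeping and positive control scaling, 2 RUVg factors, males only and females only, and 2 under TMM, RLE, DESeq2, 1 RUVg factor by either test, without the 3 Untreated mice of another number series, without LPS replicate 3 and Untreated replicate 3 together, and without 1 of 5 single mice (those named for Tie1). Upregulated DEGs numbered 1 with 1 RUVg factor by either test and with 2 factors and 0 in males only in place of 2, and 3, with Cldn5, under housekeeping scaling (0.55), positive control scaling (0.54), females only (0.53) and without Untreated replicate 3 and Dox+LPS replicate 1 together. Genes that rose numbered 2 in males only and 4 in females only, with 1 RUVg factor by either test and with 2 factors in place of 5. Hif1a reversed from -0.10 to 0.024 with housekeeping scaling and to 0.011 with positive control scaling. The cause of these changes was not tested, except that each sex alone holds fewer mice. Depth over background was least for Myct1, which did not exceed background in 4 mice.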
